A study of Homo sapiens with 6 samples.

Results

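The 9 genes considered here build and load the MHC class I molecule: the classical heavy chains HLA-B and HLA-C, the non-classical heavy chains HLA-E and HLA-F, the light chain B2M, the peptide transporter subunits TAP1 and TAP2, the bridging factor TAPBP (tapasin) and the transcriptional activator NLRC5. They were chosen by name, and every row of the expression files carrying one of these symbols was taken. Of the 9 genes, 7 were measured among 16305 genes in all, and HLA-B and HLA-F were not analysed here. The cells were Huh7-R (Huh7SR in the sample labels), a pool of the human hepatocellular carcinoma cell line Huh7 that had been made resistant to sorafenib, a multikinase inhibitor used against liver cancer. One group of 3 samples received fostamatinib (FOS), a prodrug of a tyrosine kinase inhibitor, at 2 µM for 24 h, and the other group of 3 samples received the solvent DMSO for 24 h, with 2 µM written for DMSO as well. Both groups carried the same sorafenib resistance, and all 6 samples came from this 1 pool. The labels call the samples triplicates without saying whether they were separate cultures, so the p-values measure only the spread between these samples, which may be technical.

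Class I molecules display short peptides from inside the cell to CD8 T cells, and HLA-E is also read by inhibitory receptors of natural killer cells. Peptides are cut by the proteasome, pumped into the endoplasmic reticulum by the TAP1-TAP2 transporter and placed on the heavy chain within a loading complex held together by tapasin, after which the heavy chain and B2M travel to the surface. Interferon raises the whole set through factors such as IRF1 and NLRC5, and NF-kB acts on the heavy chain and B2M promoters. In healthy hepatocytes class I is low, and its loss is one way by which tumour cells escape T cells.

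The promoters of the measured members are shown because these genes are known to be switched on together through a few shared DNA elements, while the transcripts below did not all move in one direction. RefSeq promoter sequences (GRCh38.p14) were at hand for 5 of the 7 measured members, and HLA-E and NLRC5 had no entry. Each line gives the 250 bases before the transcription start, 5′ to 3′ along the gene's own strand, with motif matches in capitals. The motifs searched on both strands were GAAANNGAA for interferon-stimulated response elements, GGNNTTNCC for NF-kB sites, CCAAT for the Y box bound by NF-Y, and TGACGC for the X2 box bound by CREB and ATF1, and matches that touch or overlap run together in the capitals. TAP1 has 2 entries, of which the upstream start is shown.
HLA-C: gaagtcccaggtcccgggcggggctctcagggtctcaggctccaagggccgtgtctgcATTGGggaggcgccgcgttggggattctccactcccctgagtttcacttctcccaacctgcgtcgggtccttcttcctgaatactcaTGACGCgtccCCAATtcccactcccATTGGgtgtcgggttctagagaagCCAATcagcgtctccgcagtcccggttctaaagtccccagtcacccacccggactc
B2M: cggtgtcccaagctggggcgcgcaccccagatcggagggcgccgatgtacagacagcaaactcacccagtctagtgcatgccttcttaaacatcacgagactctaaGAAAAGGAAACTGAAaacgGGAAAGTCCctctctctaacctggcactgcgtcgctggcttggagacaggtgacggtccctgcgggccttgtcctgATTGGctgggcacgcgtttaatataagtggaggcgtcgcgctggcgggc
TAP1: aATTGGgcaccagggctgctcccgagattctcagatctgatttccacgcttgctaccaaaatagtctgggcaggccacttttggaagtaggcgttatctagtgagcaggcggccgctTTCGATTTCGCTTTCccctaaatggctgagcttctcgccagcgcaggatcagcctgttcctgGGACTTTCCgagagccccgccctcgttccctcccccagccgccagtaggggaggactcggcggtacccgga
TAP2: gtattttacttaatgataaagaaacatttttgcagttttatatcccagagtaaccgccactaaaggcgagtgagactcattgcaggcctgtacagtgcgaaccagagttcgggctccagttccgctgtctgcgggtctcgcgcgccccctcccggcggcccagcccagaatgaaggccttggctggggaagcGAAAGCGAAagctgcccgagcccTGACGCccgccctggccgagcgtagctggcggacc
TAPBP: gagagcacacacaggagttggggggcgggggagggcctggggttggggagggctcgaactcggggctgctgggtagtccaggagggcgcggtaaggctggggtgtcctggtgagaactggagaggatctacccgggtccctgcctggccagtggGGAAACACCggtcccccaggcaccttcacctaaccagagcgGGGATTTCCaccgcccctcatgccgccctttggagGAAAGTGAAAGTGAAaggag
These windows lie at chr6:31272093-31272342 on the minus strand (HLA-C), chr15:44711267-44711516 on the plus strand (B2M), chr6:32853705-32853954 on the minus strand (TAP1), chr6:32838740-32838989 on the minus strand (TAP2) and chr6:33314079-33314328 on the minus strand (TAPBP).

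The HLA-C window held the X2 letters 105 to 100 bases before the start, followed by 3 Y box matches between 95 and 52 bases before it, with a further Y box match farther upstream at 192 to 188 bases. In B2M, 2 overlapping GAAANNGAA matches lay 144 to 130 bases before the start, with an NF-kB match at 125 to 117 bases and a Y box match at 49 to 45 bases. The TAP1 window held 2 overlapping GAAANNGAA matches on the reverse strand at 133 to 119 bases and an NF-kB match at 71 to 63 bases, with a Y box match at its far end (249 to 245 bases). TAP2 held 1 GAAANNGAA match at 58 to 50 bases and the X2 letters at 35 to 30 bases, and TAPBP held 2 overlapping GAAANNGAA matches at 20 to 6 bases with NF-kB matches at 96 to 88 and 55 to 47 bases. Over all 35116 promoters of the same table, 6.88% of the 250-base windows held GAAANNGAA, 15% held GGNNTTNCC, 32% held CCAAT and 7.67% held TGACGC. The GAAANNGAA letters thus stood both in promoters of transcripts that rose (B2M, TAPBP) and in promoters of transcripts that fell (TAP1, TAP2), and a match is a description of the letters only. Elements that differ from the searched letters stay in lower case. The missing GAAANNGAA match in HLA-C therefore does not show that its promoter lacks an interferon-stimulated response element.

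The class I transcripts moved in both directions with fostamatinib. B2M, HLA-E and TAPBP rose by 11.3%, 10.9% and 22.1%, TAP1 fell by 22.7%, TAP2 fell by 34.5%, and HLA-C and NLRC5 did not pass the test. Thus 5 of the 7 measured members had an adjusted p under 0.05 in limma (Benjamini-Hochberg over all genes), 3 higher and 2 lower. Over all 16305 genes 47.8% passed, 23.3% higher and 24.5% lower, so that passing was common in this comparison. The median log2 fold change of the 7 members was 0.15, beside 0.0015 over all genes, and their median absolute log2 fold change was 0.16, beside 0.27 over all genes. FOS and DMSO samples did not overlap for 4 of the 7 members, while 54.1% of all genes had groups that did not overlap. All these values are shares of the sequenced RNA of whole cultures, in which fewer cells making a transcript and less transcript per cell cannot be told apart.

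**Figure D1:**
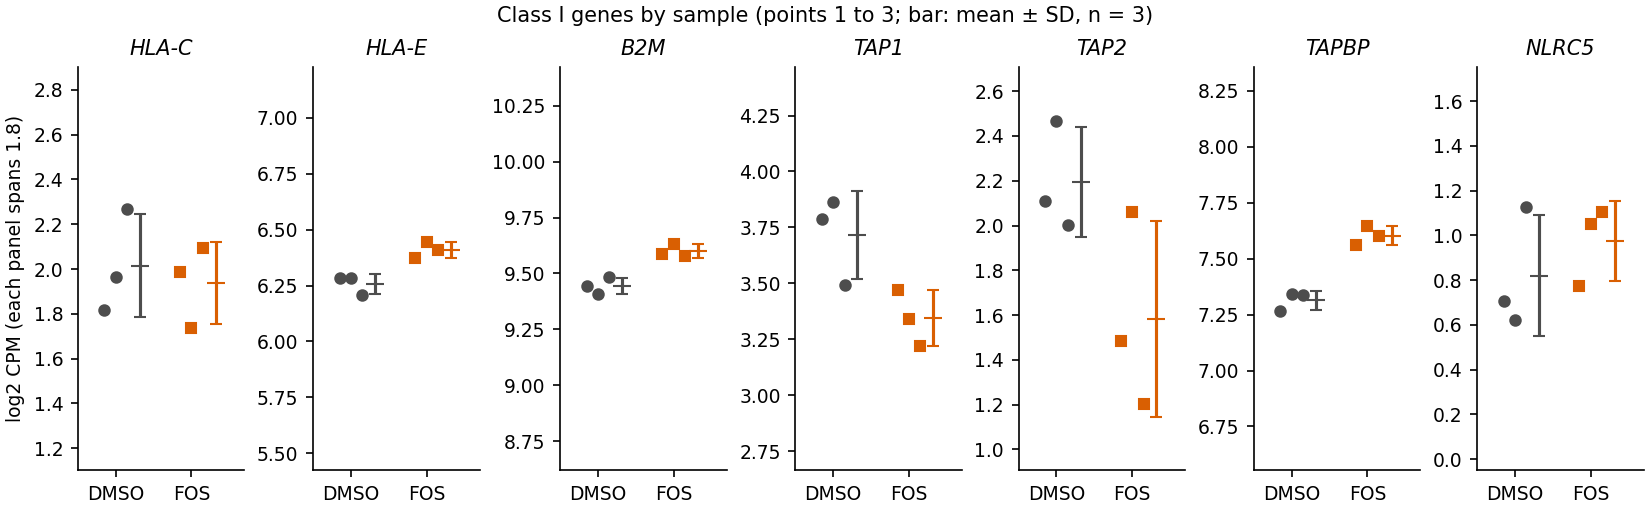
Level of the 7 measured class I genes in each sample, as log2 CPM (reads scaled to a common library size, on a log2 scale), with DMSO samples as grey circles and fostamatinib samples (FOS) as orange squares; bars show the mean ± SD of 3 samples, and every panel spans 1.8 log2 units. HLA-E, B2M and TAPBP lie higher in all FOS samples, TAP1 lies lower in all FOS samples, and the groups overlap for HLA-C, TAP2 and NLRC5.

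HLA-E, the non-classical heavy chain that presents leader peptides of other class I proteins, lies at chr6:30457286-30461971 (plus strand, hg19). Its log2 CPM was 6.28, 6.28 and 6.21 with DMSO and 6.37, 6.44 and 6.41 with FOS. All FOS samples were above all DMSO samples, although the gap between the groups was narrow. This gave a log2 fold change of 0.15 (SE 0.05, 95% interval 0.05 to 0.25, adjusted p = 0.013), from 1074 to 1240 reads per sample. Without FOS replicate 2 the HLA-E call was lost (log2 fold change 0.13, adjusted p = 0.073), and it was also lost when the variance prior ignored the expression level (adjusted p = 0.058).

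HLA-C, the classical heavy chain that also serves as a ligand of killer cell receptors, lies at chr6:31236526-31239907 (minus strand). It had 48, 59 and 71 reads with DMSO and 54, 47 and 56 with FOS. Its log2 CPM was 1.82, 1.96 and 2.27 against 1.99, 1.74 and 2.09, so the groups overlapped throughout. The log2 fold change was -0.08 (SE 0.18, 95% interval -0.44 to 0.29, adjusted p = 0.75), an interval that reaches to both sides of 0. Its sign turned without DMSO replicate 3 (0.049) or without FOS replicate 2 (0.024).

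Class I heavy chains resemble each other, so reads can be split among them by the counting. Of the 50-base windows of the longest HLA-C transcript, 6.39% occurred exactly in transcripts of 7 other genes, and for HLA-E 6.16% occurred in 15 other genes. The alleles of Huh7 were not compared with the reference, so the level of HLA-C in particular is uncertain. When the reads of HLA-C and HLA-E were summed, the DMSO samples had 1122, 1248 and 1168 reads and the FOS samples 1192, 1287 and 1181. The sum rose by 0.14 on the log2 scale (SE 0.05, adjusted p = 0.018), and this call was lost without FOS replicate 2 (adjusted p = 0.081) or FOS replicate 3 (adjusted p = 0.056). HLA-E gave most of these reads, so the sum says little about HLA-C. Adding the reads of 3 class I pseudogenes gave a log2 fold change of 0.20 (SE 0.04, adjusted p = 0.00033).

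Those 3 pseudogenes of the same gene family (HLA-H, HLA-K and HLA-L) each passed the test, beside 47.8% of all genes. They were among 14 pseudogenes and paralogs listed, of which the others were not analysed here. At a threshold of 1 expected false positive, 1 of the 3 passed. HLA-H had 295, 320 and 335 reads with DMSO and 404, 384 and 407 with FOS, a log2 fold change of 0.42 (SE 0.08, adjusted p = 1.6e-05). HLA-K had 28, 45 and 40 against 47, 57 and 68 reads, a log2 fold change of 0.70 (SE 0.20, adjusted p = 0.0041) that was lost without FOS replicate 3. HLA-L moved the other way, with 32, 27 and 32 against 12, 13 and 11 reads and a log2 fold change of -1.21 (SE 0.28, adjusted p = 0.00052). HLA-H and HLA-K had more reads in every FOS sample than in any DMSO sample, and HLA-L fewer. Of the windows of HLA-H 22.3% were shared with other annotated genes, so part of its reads could belong to those. Of HLA-L 88.5% were shared with 3 other annotated entries, but 0.62% with the measured members, HLA-H or HLA-K. Another entry that is also named HLA-L overlaps it on the same strand, and the share held by that entry was not separated.

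B2M, the invariant light chain without which heavy chains do not reach the surface, lies at chr15:45003556-45011049 (plus strand) and was by far the most abundant member, with 9590 to 11323 reads per sample. Its log2 CPM was 9.44, 9.41 and 9.48 with DMSO and 9.59, 9.63 and 9.58 with FOS. Every FOS sample was above every DMSO sample, with an SD of 0.03 to 0.04 in each group. The log2 fold change was 0.15 (SE 0.03, 95% interval 0.09 to 0.22, adjusted p = 0.00024). None of the B2M windows occurred in another transcript. The call of B2M held under all 15 alternatives tried.

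TAP1 and TAP2 form the 2 chains of the peptide pump. TAP1 (chr6:32812986-32821593, minus strand) had 190, 222 and 167 reads with DMSO and 152, 144 and 123 with FOS. Its log2 CPM was 3.79, 3.87 and 3.49 against 3.47, 3.34 and 3.22, so all FOS samples were below all DMSO samples, although DMSO replicate 3 and FOS replicate 1 nearly met. The log2 fold change was -0.37 (SE 0.11, 95% interval -0.60 to -0.15, adjusted p = 0.0056). Without DMSO replicate 2 the TAP1 call was just lost (-0.30, adjusted p = 0.052), and with a variance prior that ignored the expression level the adjusted p was 0.063.

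TAP2 (chr6:32789610-32806516, minus strand) had 59, 84 and 59 reads with DMSO and 38, 59 and 30 with FOS. Its log2 CPM was 2.11, 2.47 and 2.00 against 1.48, 2.06 and 1.20, and FOS replicate 2 lay inside the DMSO range. The log2 fold change was -0.61 (SE 0.20, 95% interval -1.02 to -0.20, adjusted p = 0.011). This call was lost without DMSO replicate 2 (-0.47, adjusted p = 0.094), without FOS replicate 3 (-0.42, adjusted p = 0.10) and with a variance prior that ignored the expression level (adjusted p = 0.12). The calls of both transporter subunits were thus lost when certain single samples were left out, with the sign the same in every alternative.

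The log2 ratio of TAP1 to TAP2 within a sample was 1.68, 1.40 and 1.49 with DMSO and 1.99, 1.28 and 2.02 with FOS. The groups overlapped, and the difference of 0.24 did not pass an exact two-sided permutation test (p = 0.40, adjusted p = 0.56 over 7 ratios), which cannot go below 0.10 with 3 against 3 samples. In GENCODE version 44, TAP1 overlaps PSMB9 and PSMB8-AS1 on the opposite strand, and TAP2 overlaps an unnamed readthrough gene on its own strand that holds most of the 30.4% of TAP2 windows found in another gene. The library kit marks strand, but whether the counting used it was not given in the sources used here, and reads where these genes overlap may have been split or left out.

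TAPBP, which codes for tapasin, lies at chr6:33267471-33282061 (minus strand) and had 2119 to 2852 reads per sample. Its log2 CPM was 7.26, 7.34 and 7.34 with DMSO and 7.56, 7.64 and 7.60 with FOS. The FOS values were all above the DMSO values, with an SD of 0.04 in both groups. Its log2 fold change was 0.29 (SE 0.04, 95% interval 0.20 to 0.37, adjusted p = 4.6e-07), and this call held under all 15 alternatives. Of its windows 5.81% occurred in transcripts of other genes.

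NLRC5, the activator that binds the RFX and NF-Y factors on class I promoters, lies at chr16:57023397-57117443 (plus strand). It had 22, 23 and 32 reads with DMSO and 23, 29 and 28 with FOS, and its log2 CPM was 0.71, 0.62 and 1.13 against 0.77, 1.05 and 1.10. The groups overlapped. With a log2 fold change of 0.16 (SE 0.25, 95% interval -0.35 to 0.66, adjusted p = 0.64), a change of moderate size was not detectable at this depth.

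**Figure D2:**
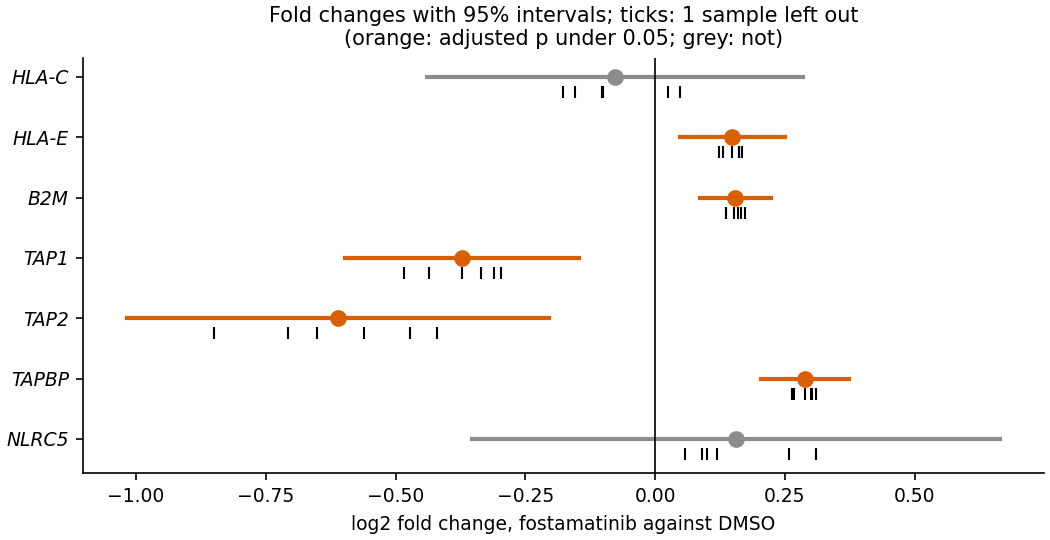
Log2 fold change of each measured class I gene, fostamatinib against DMSO (points), with its 95% confidence interval from limma (lines) in orange for an adjusted p under 0.05 and grey otherwise; black ticks show the value when each of the 6 samples was left out in turn. The intervals of HLA-E, B2M and TAPBP lie above 0, those of TAP1 and TAP2 lie below 0, and the ticks cross 0 for HLA-C alone.

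Levels were set on a common scale by dividing CPM by the kilobases of exon of each gene. In the DMSO samples B2M led with 223 ± 5.64 CPM per kilobase (SD, n = 3), followed by HLA-E with 26.2 ± 0.812, TAPBP with 23.9 ± 0.699, TAP1 with 2.78 ± 0.366, HLA-C with 1.61 ± 0.265, TAP2 with 0.443 ± 0.0783 and NLRC5 with 0.141 ± 0.0283. Each gene was above the next in all 3 samples, but the place of HLA-C rests on a level that is uncertain, as said above. In the FOS samples B2M reached 249 ± 5.19, TAPBP 29.2 ± 0.861 and HLA-E 29.0 ± 0.730, and the last 2 did not differ beyond their spread. The other 4 kept their order, with TAP1 at 2.14 ± 0.187, HLA-C at 1.52 ± 0.189, TAP2 at 0.295 ± 0.0938 and NLRC5 at 0.157 ± 0.0190 CPM per kilobase. With the length of the longest transcript instead, TAPBP stood above HLA-E in both groups (38.5 against 30.04 CPM per kilobase in the DMSO samples), so the order of that pair depends on the length used.

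**Figure D3:**
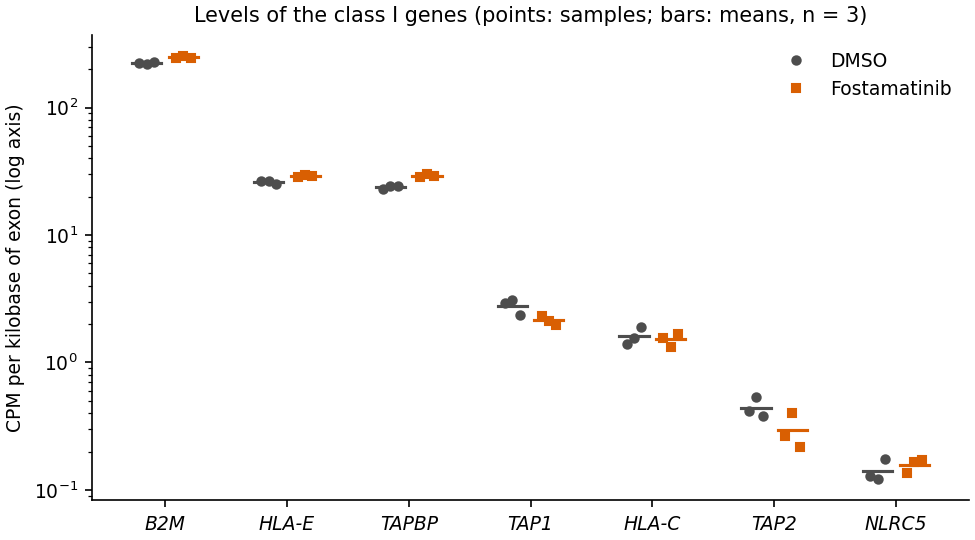
Level of each measured class I gene in CPM per kilobase of exon on a log axis, with DMSO samples as grey circles, fostamatinib samples as orange squares and horizontal bars at the group means (n = 3). B2M lies near 223 CPM per kilobase in the DMSO samples, HLA-E and TAPBP lie close together near 26.2 and 23.9, and TAP1, HLA-C, TAP2 and NLRC5 follow in that order. The level of HLA-C is uncertain, since the alleles of Huh7 were not compared with the reference.

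On this scale B2M was 8.53 times as abundant as HLA-E in the DMSO samples and 8.56 times in the FOS samples. By the reads counted, HLA-E was 16.2 times as abundant as HLA-C in the DMSO samples and 19.1 times in the FOS samples. The level of HLA-C, and so each ratio to it, is uncertain, since the alleles of Huh7 were not compared with the reference. Tapasin was 7.95, 7.94 and 10.2 times as abundant as TAP1 with DMSO and 12.2, 14.1 and 14.9 times with FOS. This pair was chosen after its values were seen and was not tested, and all FOS ratios were above all DMSO ratios. The log2 ratio of B2M to HLA-C was 7.43 ± 0.21 (SD) in the DMSO samples and 7.66 ± 0.21 in the FOS samples (exact permutation p = 0.30, adjusted p = 0.53).

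Among 12 proteins that trim peptides or fold class I in the endoplasmic reticulum, 6 passed the test, 4 higher and 2 lower, beside 47.8% of all genes, with a median log2 fold change of 0.05. TAPBPL, the tapasin-related peptide editor (TAPBPR), rose most, with 70, 92 and 84 reads with DMSO and 100, 117 and 99 with FOS, a log2 fold change of 0.45 (SE 0.14, adjusted p = 0.0057). The log2 ratio of TAPBP to TAPBPL was 4.91, 4.74 and 4.83 with DMSO and 4.69, 4.60 and 4.69 with FOS, lower in every FOS sample (exact permutation p = 0.10, the smallest that 3 against 3 samples allow, adjusted p = 0.23). The chaperone calreticulin (CALR), a partner in the loading complex, rose by 0.15 (SE 0.03, adjusted p = 0.00018) on the log2 scale. Its membrane-bound relative calnexin (CANX), which holds new heavy chains, moved the other way with a log2 fold change of -0.20 (SE 0.03, adjusted p = 4.4e-06). Both glucosidase II subunits rose, GANAB by 0.13 (SE 0.03, adjusted p = 0.00076) and PRKCSH by 0.22 (SE 0.04, adjusted p = 1.0e-05). UGGT1, which sends misfolded glycoproteins back to these chaperones, had a log2 fold change of -0.24 (SE 0.04, adjusted p = 8.5e-06). The oxidoreductase PDIA3 of the loading complex (-0.04, SE 0.03) and the trimming peptidase ERAP1 (0.05, SE 0.05) did not pass.

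Of 6 genes of the immunoproteasome and its activators, which shape the supply of class I peptides, 3 passed, 1 higher and 2 lower, close to the 47.8% of all genes. PSMB8, a catalytic subunit, had 234, 287 and 230 reads with DMSO and 170, 163 and 186 with FOS, a log2 fold change of -0.44 (SE 0.10, adjusted p = 0.00038). POMP, the assembly factor of proteasomes, fell with a log2 fold change of -0.39 (SE 0.05, adjusted p = 1.2e-08). PSME1, a subunit of the PA28 activator, rose by 0.30 (SE 0.04, adjusted p = 1.8e-07), while its partner PSME2 stood at 0.05 (SE 0.04, adjusted p = 0.39). PSMB9 with 12 to 23 reads and PSMB10 with 43 to 67 reads per sample did not pass. Of the 3 constitutive catalytic subunits that these replace, PSMB7 alone passed (-0.13, SE 0.05, adjusted p = 0.017), and its call was lost when any of DMSO replicates 1 and 2 or FOS replicates 2 and 3 was left out.

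The log2 ratio of PSMB8 to the constitutive subunit PSMB5 was -3.87, -3.74 and -3.96 with DMSO and -4.30, -4.40 and -4.05 with FOS, lower in every FOS sample. That of PSMB10 to PSMB7 was -4.95, -4.84 and -5.29 against -4.67, -4.57 and -4.74, higher in every FOS sample. Each gave an exact permutation p of 0.10, the smallest the design allows, with an adjusted p of 0.23. The ratios of PSMB9 to PSMB6 (exact permutation p = 0.50, adjusted p = 0.58) and of TAP1 to its divergent neighbour PSMB9 (exact permutation p = 0.70, adjusted p = 0.70) overlapped between the groups. In all, 3 of the 7 ratios computed did not overlap and 4 did.

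Of 8 factors that bind class I promoters, 7 passed, 3 higher and 4 lower, beside 47.8% of all genes, and 1 passed at a threshold of 1 expected false positive. Partners of the same complex moved apart. Within the RFX complex, which recruits NLRC5 to the X1 box, RFX5 rose from 802, 851 and 844 reads to 1052, 1043 and 996 (log2 fold change 0.40, SE 0.05, adjusted p = 7.3e-08). Its partner RFXAP had 87, 93 and 72 reads with DMSO and 52, 58 and 51 with FOS, with a log2 fold change of -0.55 (SE 0.16, adjusted p = 0.0047). RFXANK stood at 0.14 (SE 0.05, adjusted p = 0.017), a call lost without DMSO replicate 3 or FOS replicate 1. In the trimeric NF-Y factor of the Y box, NFYB had a log2 fold change of -0.26 (SE 0.07, adjusted p = 0.0031), NFYC of 0.19 (SE 0.06, adjusted p = 0.012, lost without DMSO replicate 1 or FOS replicate 1) and NFYA of -0.04 (SE 0.06, adjusted p = 0.58). CREB1 (-0.23, SE 0.07, adjusted p = 0.0033) and ATF1 (-0.27, SE 0.07, adjusted p = 0.0020) fell.

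Of 16 genes through which interferon and NF-kB act on class I, 11 passed, 2 higher and 9 lower, beside 47.8% of all genes (23.3% higher and 24.5% lower), with a median log2 fold change of -0.22, and their values ran from -3.00 to 0.63. IFNGR1, the ligand-binding chain of the interferon gamma receptor, had 3177, 3638 and 3620 reads with DMSO and 1349, 1462 and 1340 with FOS, a log2 fold change of -1.24 (SE 0.04, adjusted p = 5.2e-23). The type I receptor chains also fell, IFNAR2 at -0.54 (SE 0.05, adjusted p = 7.8e-12) and IFNAR1 at -0.21 (SE 0.06, adjusted p = 0.0027), while IFNGR2 did not pass (-0.09, SE 0.06). IRF1, which binds the response elements of class I promoters, had a log2 fold change of -0.32 (SE 0.07, adjusted p = 0.00020).

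STAT2 and the kinase TYK2, both of type I interferon signalling, were the pair that rose, at 0.63 (SE 0.05, adjusted p = 1.9e-12) and 0.50 (SE 0.05, adjusted p = 4.0e-10). JAK1 fell slightly (-0.15, SE 0.03, adjusted p = 0.00052), and JAK2 did not pass (-0.23, SE 0.13, adjusted p = 0.17). Furthest down in this list were SOCS3 and SOCS1, inhibitors of the same signals. SOCS3 had 343, 405 and 374 reads with DMSO and 39, 45 and 47 with FOS (log2 fold change -3.00, SE 0.12, adjusted p = 2.6e-21), and SOCS1 had 131, 135 and 121 against 31, 19 and 16 (-2.49, SE 0.20, adjusted p = 6.4e-13). PTPN2, a phosphatase that acts on JAK1, fell as well (-0.42, SE 0.06, adjusted p = 2.9e-07). NFKB1, the p50 subunit of NF-kB, fell (-0.43, SE 0.05, adjusted p = 3.4e-09), and its partner RELA did not pass (-0.10, SE 0.05, adjusted p = 0.12). Both activators and inhibitors of interferon signalling were thus among the genes that fell.

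**Figure D4:**
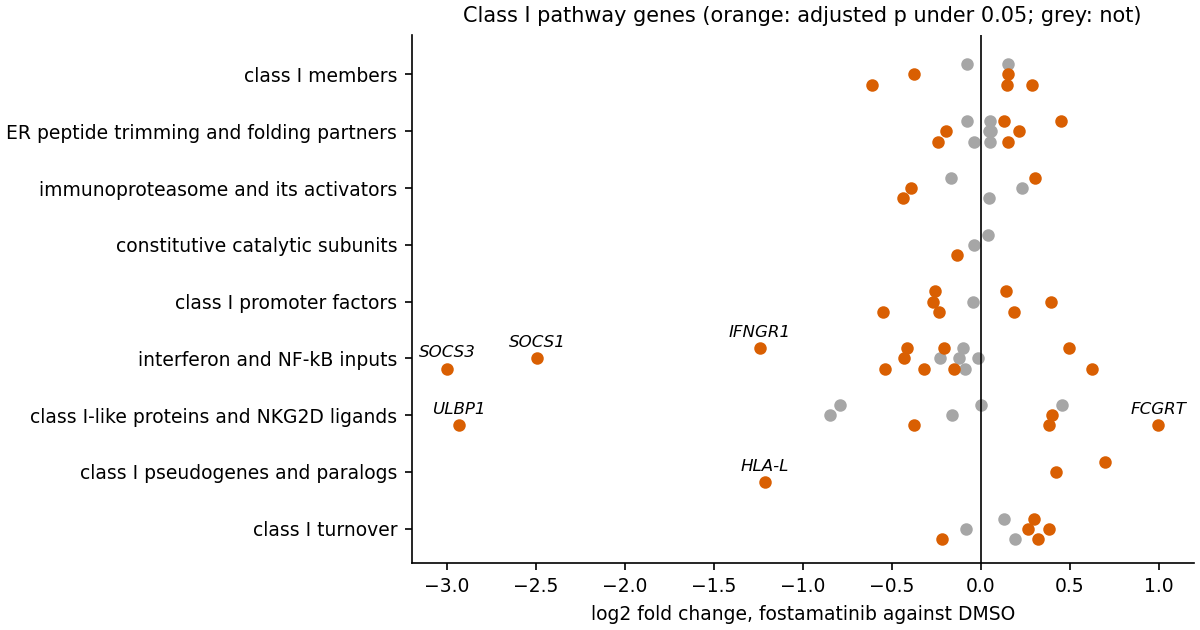
Log2 fold change, fostamatinib against DMSO, of each tested gene of the class I members and of 8 lists around the pathway; each point is 1 gene, orange with an adjusted p under 0.05 and grey without, and genes beyond 0.9 in either direction are named. SOCS3, SOCS1 and ULBP1 lie farthest to the left, and all folding partners and 6 of the 7 class I members lie within 0.5 of 0.

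Of 10 tested class I-like genes, 5 passed, 3 higher and 2 lower, again close to the 47.8% of all genes, and 3 passed at 1 expected false positive. FCGRT, the neonatal Fc receptor chain that pairs with B2M, rose from 490, 531 and 509 reads in the DMSO samples to 1020, 940 and 915 in the FOS samples, a log2 fold change of 0.997 (SE 0.06, adjusted p = 2.4e-16). The other class I-like partners of B2M that were measured rose too, HFE, a regulator of iron uptake, by 0.38 (SE 0.09, adjusted p = 0.00038) and MR1, which presents vitamin metabolites, by 0.40 (SE 0.11, adjusted p = 0.0035). Among the stress-induced ligands of the natural killer cell receptor NKG2D, which do not bind B2M, ULBP1 fell from 47, 36 and 44 reads to 5, 7 and 3 (log2 fold change -2.93, SE 0.34, adjusted p = 4.7e-09). MICB had 832, 1101 and 950 reads against 727, 728 and 625 (-0.38, SE 0.06, adjusted p = 4.1e-06), and MICA, with 50 to 71 reads per sample, did not pass (-0.16, SE 0.17). ULBP2 (-0.79, SE 0.41, adjusted p = 0.12) and ULBP3 (-0.85, SE 0.60, adjusted p = 0.26) did not pass either. RAET1G, another such ligand, stood on the other side of 0 and did not pass (0.46, SE 0.33, adjusted p = 0.26).

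Of 8 genes listed for class I turnover, 5 passed, 4 higher and 1 lower, beside 47.8% of all genes, and 2 passed at 1 expected false positive. Their median log2 fold change was 0.23. Whether each of them acts on class I in these cells was not tested. TMEM127 (0.30, SE 0.05, adjusted p = 1.4e-06) and the ubiquitin ligase WWP2 (0.27, SE 0.06, adjusted p = 0.00027), which together send class I to lysosomes, rose, and their partner SUSD6 stood at 0.19 (SE 0.09, adjusted p = 0.078). The ubiquitin ligases MARCHF9 (0.32, SE 0.10, adjusted p = 0.0070) and TMEM129 (0.39, SE 0.07, adjusted p = 1.0e-05) rose. RNF139 had a log2 fold change of -0.21 (SE 0.08, adjusted p = 0.031), a call that was lost without DMSO replicate 1 or 3 or FOS replicate 2 or 3. Of 13 class II genes, HLA-DMA alone was tested, with 7 to 13 reads per sample and no call (adjusted p = 0.30), and the other 12 were not analysed here.

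On chromosome 6 the members HLA-E, HLA-C, TAP1, TAP2 and TAPBP lie in the MHC region, which spans 3.59 Mb from the start of HLA-F to the end of TAPBP (chr6:29690552-33282061, hg19). In this region 106 genes were tested, of which 49 passed, or 46.2%, beside 47.8% of all genes. Of these, 31 were higher and 18 lower, shares of 29.2% and 17.0% beside 23.3% and 24.5% of all genes. The median log2 fold change was 0.11 in the region, and values ran from -1.78 to 1.61. The 5 members lay inside this range, which the most extreme genes of the region set. Genes that rose and fell were mixed along the region as a whole. From TAP2 to TAP1, however, all tested genes lay below 0, among them PSMB8 (-0.44) and PSMB9 (-0.17, not passing).

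**Figure D5:**
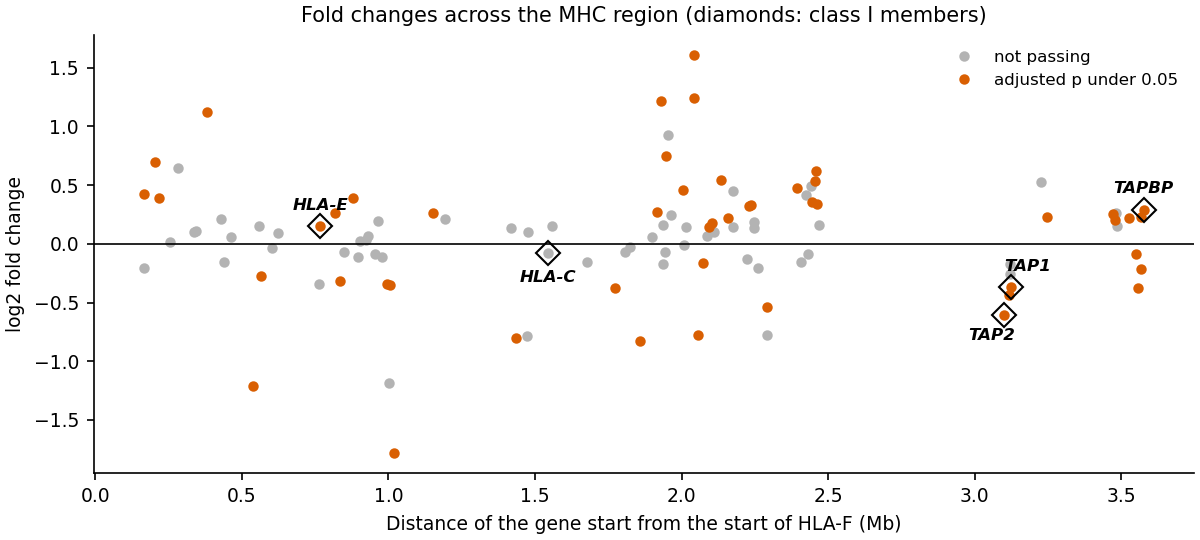
Log2 fold change, fostamatinib against DMSO, of the 106 tested genes of the MHC region against the distance of each gene start from the start of HLA-F in Mb; orange points have an adjusted p under 0.05, grey points do not, and diamonds mark the class I members. HLA-E and TAPBP lie above 0, TAP1 and TAP2 lie below it, and genes between -1.78 and 1.61 are spread along the region.

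Library depth ranged from 13303451 to 15272737 reads on the genes kept. Chi-square per degree of freedom between libraries (1 for counting error alone) was 1.65 to 3.74 within a group and 39.8 to 44.5 across groups. All 9 hepatocyte and hepatoma markers were measured, with a summed level of 8043 to 8350 CPM in the DMSO samples and 7383 to 7479 CPM in the FOS samples, and AFP and ALB had 25715 or more and 8568 or more reads. The sum was lower with FOS although 7 of the 9 markers passed higher, with a median log2 fold change of 0.31, among them ALB (0.29), AFP (0.31), HNF4A (1.02) and APOA1 (3.19). The 2 that passed lower were the abundant keratins KRT8 (-0.56) and KRT18 (-0.86). Of 12 leukocyte markers 5 had values, with a summed level of 26.6 to 28.5 CPM against 20.2 to 23.6 CPM, and of 9 stromal and endothelial markers 5 had values, with 155 to 160 CPM against 201 to 209 CPM, most of it from COL1A2. Of the leukocyte markers 2 passed, both lower, and of the stromal and endothelial markers 3 passed, all higher. Over all genes 47.8% passed, 23.3% higher and 24.5% lower, so such counts of markers say little by themselves. The defining leukocyte marker PTPRC was not analysed here. The part of these markers in the class I values was not tested.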

How the data were processed

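RNA-seq of Huh7-R cells was analysed in 3 fostamatinib and 3 DMSO samples, grouped by their labels. Read mapping by the authors used HISAT (hg19) and counting used featureCounts (GENCODE version 22); a gene was dropped where both groups had under 5 reads in 2 or more of 3 samples, and TMM scaling followed. The deposited values are log2 CPM, with 0.5 added to each count. Reads were recovered from them (100% of values within 0.05 of a whole number), which gave the depth of 13303451 to 15272737 reads per sample. Intervals use limma's SE, which combines each gene's spread over 3 samples per group with the spread of all genes. The total degrees of freedom had a median of 33.9, beside 4 from the samples alone. A gene that spreads more than others of its level, such as TAP2, thus has a narrower interval than its own samples would give.

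The test was limma's (version 3.58.1, R 4.3.3; lmFit, then eBayes with trend), with treatment as its one term and 16305 genes, with Benjamini-Hochberg adjustment, and an adjusted p under 0.05 counted as passing. The script was tested on simulated data. The class I genes and all lists were chosen with earlier results of these data known. All members and the genes of the lists with the largest changes or the most reads were named, and the others were summarised. One planned gene of the interferon list is not reported here and was left out of its counts. Ratios of 2 genes within a sample were compared by an exact two-sided permutation test (scipy 1.17.1), and 3 of 10 planned ratios needed HLA-B or HLA-F and were not computed. Coordinates and exon lengths are from GENCODE version 44 mapped to GRCh37, the build of hg19. Shared sequence was counted as 50-base windows of the longest transcript. Promoters are from a RefSeq table of GRCh38.p14, matched by symbol. MARCHF9 was matched by gene identifier. Alternatives were limma-voom, eBayes without a trend, RLE size factors, library size alone, 2 added to each count, stricter filters, the replicate block, leaving out each sample and a threshold of 1 expected false positive.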

Additional observations from a re-analysis of the deposited data

How the results depend on the processing

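B2M and TAPBP passed the test under every alternative tried, and the direction of the fold change was kept under all of them for each measured class I gene but HLA-C, whose value ran from -0.18 to 0.049 with 1 sample left out. Of the class I genes 5 passed, 3 to 5 with 1 sample left out (0 to 2 lower), 2 with eBayes without a trend and 2 at 1 expected false positive, with 0 lower in both. At 1 expected false positive 4136 genes passed in all instead of 7794 (1892 higher and 2244 lower), with 1 promoter factor, 3 class I-like genes, 1 pseudogene, 2 turnover genes and 0 constitutive subunits. The constitutive subunits also numbered 0 with eBayes without a trend and 0 to 1 with 1 sample left out. The summed heavy chains ran from 0.12 to 0.15 with 1 sample left out. PSMB9, which did not pass, ran from -0.38 to 0.068 with 1 sample left out. Of 41 genes of the pathway lists that passed, 36 passed with each sample left out in turn, and none of the 41 changed sign. The cause of the lost calls was not tested.

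Replicate numbers are shared by the groups, but same-numbered samples did not deviate together (correlations 0.028, -0.019 and 0.013 over 13287 genes), so the numbers were not taken to pair the samples. With the replicate block 7977 genes passed (3879 higher and 4098 lower), and the same number of class I genes, 5, passed. Low depth limits HLA-C, TAP2 and NLRC5, each under 100 reads per sample.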
